A study of Mus musculus with 8 samples.

Results

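The isoenzymes of glycolysis described here were the products of 10 genes that serve 5 enzyme steps: the hexokinases Hk1, Hk2 and Hk3, the phosphofructokinases Pfkl, Pfkm and Pfkp, the aldolases Aldoa and Aldoc, the pyruvate kinase Pkm, and the lactate dehydrogenase Ldhb. They were taken by symbol from a table of 52195 genes in 8 bulk RNA-seq libraries, and all 10 symbols had a row. The tissues were lung, liver, small intestine and kidney, with 2 libraries of polyadenylated RNA each. They came from male mice, with no treatment named, of the inbred strain that the labels give as C57BL/6 and the methods as C57BL/6J, aged 6 to 10 weeks. Values were the deposited fragments per kilobase of transcript, scaled to the size of the library (FPKM), which also allow for gene length. For most genes this length matched that of all annotated exons together. The transcripts present in a tissue can be shorter, so levels, shares and ratios of different isoenzymes rest in part on that length. The methods state that all 4 tissues were taken from each mouse, so that libraries of different tissues share animals, but which libraries do is not given. Whole tissue was sequenced, and therefore fewer cells of a type and less RNA per cell cannot be told apart in any value below. Levels and their orders are given as deposited, and the effect of another scaling between libraries is given with the tissue comparisons.

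Glycolysis splits glucose into pyruvate and yields ATP. Hexokinases trap glucose by phosphorylation, phosphofructokinase makes the committed step, aldolase cleaves the resulting bisphosphate sugar, pyruvate kinase makes the last ATP, and lactate dehydrogenase interconverts pyruvate and lactate. Most of these steps have several isoenzymes from separate genes with different kinetics. Pklr is the liver and red cell pyruvate kinase. Pklr, Hkdc1 (a hexokinase domain protein) and Ldha (the partner subunit of Ldhb) were used as partners in the comparisons below.

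The number of reads counted on genes, recovered from the steps between low FPKM values, ranged from 9164187 to 21444672 per library. Intervals and floors based on reads cover counting error only. Each tissue label matched the marker list of that tissue, and the libraries of the other tissues had far lower sums. For hepatocytes the sums were 39044 and 33629 FPKM in liver against at most 152.9 elsewhere, and for intestinal epithelium 5129 and 7070 FPKM in small intestine against at most 56.5 elsewhere. Lung also held transcripts of a cardiac muscle list (6 of 6 and 5 of 6 genes at FPKM 1 or more, summed FPKM 243 and 250, against at most 9.27 elsewhere), and small intestine those of a pancreatic acinar list (6 of 6 genes in both libraries, summed FPKM 2617 and 1199, against at most 77.1 elsewhere). An erythroid list of 6 genes summed to 19195 and 24893 FPKM in lung against at most 2412 elsewhere, although its gene Alas2 was higher in liver and Slc4a1 in kidney. A skeletal muscle list of 6 genes summed to 43.6 FPKM in lung 1 and 7.12 in lung 2, against at most 11.3 elsewhere. The part of these other cells in the results was not tested. Kidney had the least similar pair of libraries, with a median absolute log2 difference of 0.30 over the genes tested against 0.14 to 0.18 in the other tissues.

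The row with the symbol Aldoa could not be read as aldolase A. In the annotation, 2 genes carry this symbol: aldolase A itself (chr7:126795234-126800751, GRCm38, minus strand, 2911 exon bases) and a neighbouring gene (chr7:126800790-126809108, minus strand, 799 exon bases). With the length of the neighbouring gene, the values gave whole reads within 0.02 in 5 of 5 libraries above 0, and with the length of aldolase A in 0 of 5. The row held 3 reads in kidney 1 and lung 1, 2 reads in lung 2 and both small intestine libraries, and was listed at 0 in kidney 2 and both liver libraries. The level of aldolase A was therefore not analysed here, and of the 10 members 9 passed the filter on low values (FPKM 1 or more in at least 2 libraries).

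Among Hk1, Hk2 and Hk3, the gene with the highest mean level was Hk1 in kidney and lung, Hk2 in small intestine and Hk3 in liver. Hk1, the broadly expressed hexokinase bound to mitochondria (chr10:62268855-62379908, minus strand), was measured in kidney at 8.52 and 4.64 FPKM and in lung at 6.15 and 6.998, but in small intestine at 1.21 and 0.921 and in liver at 0.473 and 0.295. The kidney and lung values overlapped, and both lay above every value of small intestine and liver. The mean of kidney was 17.1 times that of liver. Hk2, the hexokinase of muscle and fat that insulin and low oxygen can induce (chr6:82725025-82774454, minus strand), was at 2.93 and 3.07 FPKM in lung and 1.86 and 1.82 in small intestine, but at 0.0547 and 0.0387 in kidney and 0.0731 and 0.0487 in liver. The kidney values rested on 7 and 4 reads and the liver values on 4 and 3 reads, so that Hk2 was at or near the floor of 3 reads there and these tissues overlapped. Per read counted, Hk2 was 63.35-fold higher in lung than in kidney (95% exact counting interval 35.0 to 127.9) and 30.6-fold higher in small intestine than in liver (14.6 to 76.9). A smooth muscle list of 6 genes was also high in lung and small intestine, with summed FPKM of 251.6 and 256 and of 309.6 and 254, against 21.3 and 18.2 in kidney and 4.49 and 4.32 in liver, where Tagln was listed at 0 in 1 library. It had 5 to 6 of 6 genes at FPKM 1 or more in lung and small intestine and 1 to 3 of 6 in kidney and liver, and its part in the level of Hk2 was not tested.

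Hk3, a hexokinase known from myeloid cells (chr13:55005985-55021385, minus strand), reached 1.25 and 1.40 FPKM in lung. Its values were 0.771 and 1.42 for the liver libraries, 0.725 and 0.815 for small intestine, and 0.0633 and 0.0314 for kidney (5 and 2 reads). Lung, liver and small intestine overlapped between neighbours in this order, and kidney lay below all of them, 15.8-fold below small intestine per read counted (7.20 to 41.0). A macrophage list moved with Hk3 in part: its 6 genes summed to 24.7 and 23.0 FPKM for kidney, 101 and 67.2 for small intestine, 84.6 and 85.8 for liver, and 221 and 183 for lung, with none listed at 0 and 4 to 6 of 6 at FPKM 1 or more in each library. A neutrophil list of 7 genes summed to 72.6 and 373 FPKM in the lung libraries and to at most 7.82 in any other, while Hk3 differed little between the lung libraries. The part of these cells in the level of Hk3 was not tested.

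**Figure D1:**
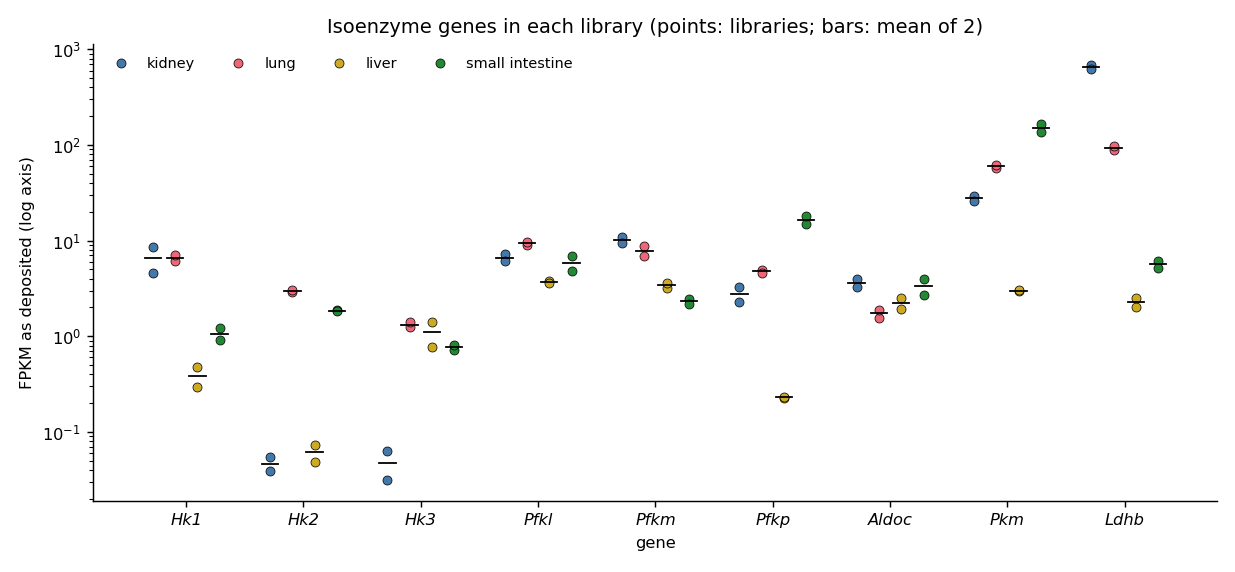
FPKM of the 9 isoenzyme genes with a readable row in each of the 8 libraries on a log axis, with 1 point per library, a bar at the mean of the 2 libraries, and colours for the tissues. Hk2 and Hk3 sat below 0.1 FPKM in kidney, Pfkp at 0.228 and 0.231 FPKM in liver, and Ldhb between 2.02 and 691 FPKM over all libraries.

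Seen as shares of the summed FPKM of Hk1, Hk2, Hk3 and Hkdc1, which leaves out any other gene of the step, Hk1 made up 94.8% ± 1.42 (SD, n = 2) in kidney and 51.4% ± 3.81 in lung. In lung the rest was spread over Hk2 (23.5%), Hkdc1 (14.8%) and Hk3 (10.4%). In small intestine Hkdc1 held 93.1% ± 0.70, with Hk2 at 3.46%, Hk1 at 2.02% and Hk3 at 1.44%. In liver Hk3 held 65.3% ± 19.1 and Hk1 24.1% ± 10.9, and the libraries were far apart, with Hk3 at 51.8% and 78.8%. The summed FPKM of the 4 genes was 53.3 in small intestine, 12.8 in lung, 6.92 in kidney and 1.65 in liver, so that the liver shares are shares of a small sum and those of small intestine of a large one. After median-of-ratios scaling these sums were 49.6, 6.88, 7.76 and 2.78, and lung no longer lay above kidney.

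Ratios between isoenzymes were compared within a library, where a scaling between libraries matters little unless a gene is low. Each ratio was taken as log2 of FPKM + 0.1, so that a ratio with a gene near or below 0.1 FPKM is set in part by the added 0.1, and tested by exact permutation, in which the 8 libraries were divided into pairs in every possible way and the share of the variance between pairs was compared, with a smallest possible p of 0.00952 and adjustment over 11 ratios. This test takes the libraries as independent. With the replicate number as a block, the smallest possible permutation p is 0.0417. None of the 8 ratios reported then had an adjusted p under 0.05, as given in the last section. The log2 ratio of Hk1 to Hk2 was highest in kidney (5.80 and 5.10), followed by liver (1.73 and 1.41) and lung (1.04 and 1.16), and lowest in small intestine (-0.58 and -0.91). Small intestine was thus the tissue in which the FPKM of Hk2 exceeded that of Hk1, in both libraries. The reads there were closer, at 97 and 89 for Hk1 and 104 and 123 for Hk2. The exon lengths were 8532 and 5969 bases, so the excess of Hk2 rests in part on these lengths. The span from the highest to the lowest tissue mean was 6.19 (exact permutation p = 0.00952, adjusted p = 0.02095). The log2 ratio of Hk1 to Hk3 ran from 5.72 and 5.18 in kidney through 2.21 and 2.24 in lung and 0.67 and 0.16 in small intestine to -0.60 and -1.94 in liver, a span of 6.72 (exact permutation p = 0.00952, adjusted p = 0.02095). The liver libraries differed by more than those of any other tissue in this ratio. The log2 ratio of Hk2 to Hk3 was alike in lung (1.17 and 1.08) and small intestine (1.25 and 1.07), near 0 in kidney where both genes were at a few reads, and -2.33 and -3.35 in liver, with a span of 4.001 (exact permutation p = 0.0286, adjusted p = 0.0314). The sizes of these hexokinase ratios moved with the added value: with 1 in place of 0.1 the differences between the same pairs of tissues were 3.27 for Hk1/Hk2, 3.39 for Hk1/Hk3 and 1.65 for Hk2/Hk3, and with 0.01 they were 7.60, 8.30 and 5.17. With 1 the order of liver and lung for Hk1/Hk2 also turned, with lung at 0.86 and 0.97 and liver at 0.46 and 0.30, as did that of lung and small intestine, which were close, for Hk2/Hk3.

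The promoters of Hk1 and Hk2 are shown because these 2 hexokinases exchanged ranks in FPKM between tissues. The windows are the 250 bases before the most upstream start given by RefSeq (GRCm38.p6), printed 5′ to 3′ in the direction of the gene, with the letters ACGTG, the core of a hypoxia response element and part of the E box, or its reverse complement CACGT in capitals. The window of Hk1 is chr10:62379909-62380158 and that of Hk2 chr6:82774455-82774704, both on the minus strand.

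Hk1: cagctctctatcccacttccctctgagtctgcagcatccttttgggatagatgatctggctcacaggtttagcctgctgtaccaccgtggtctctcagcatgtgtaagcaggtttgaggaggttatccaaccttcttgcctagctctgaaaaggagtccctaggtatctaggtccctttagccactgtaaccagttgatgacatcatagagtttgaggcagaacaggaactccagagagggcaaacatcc
Hk2: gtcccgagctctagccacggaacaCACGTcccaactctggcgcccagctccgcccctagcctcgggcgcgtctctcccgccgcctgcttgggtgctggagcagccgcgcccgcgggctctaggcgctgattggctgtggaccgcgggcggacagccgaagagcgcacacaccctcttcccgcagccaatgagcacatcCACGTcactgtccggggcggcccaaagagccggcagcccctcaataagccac

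The window of Hk2 held 2 matches, which began 226 and 52 bases before the start, and that of Hk1 held none. Hk1 has 2 starts in RefSeq, and the window of the other start also held none. Which start was used in these tissues was not tested. Of 32851 windows of this length in the table, 16.6% held at least 1 match on either strand, and 6.81% held 2 or more. Among the 9 members other than Aldoa, 3 held a match in the window of their most upstream start: Hk2, Hk3 and Pfkm. Pkm held 1 in the window of its other start alone. Overlapping matches on opposite strands, as in CACGTG, were counted separately. A match describes the letters only.

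**Figure D2:**
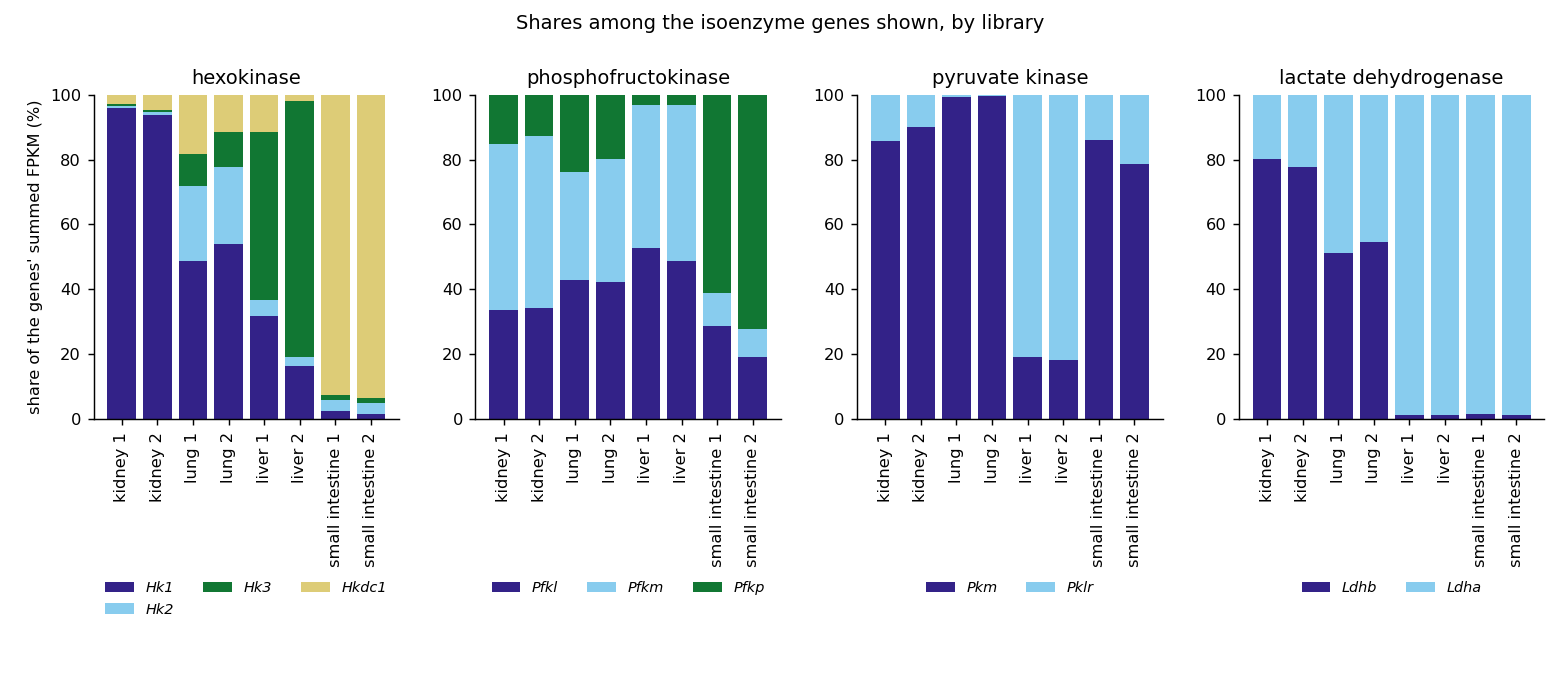
Share of each isoenzyme gene in the summed FPKM of the genes shown in its panel (%, bars from 0 to 100) for each of the 8 libraries, with 1 panel for each of 4 steps. Of the hexokinase genes shown, Hk1 had the highest share in kidney and lung, Hk3 in liver and Hkdc1 in small intestine, and the share of Ldhb ranged from 80.2% in kidney 1 to 1.31% in liver 1.

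At the phosphofructokinase step the muscle, liver and platelet types were each widely present, but in different proportions. Pfkm, the muscle type (chr15:98092589-98132451, plus strand), was highest in kidney, at 11.04 and 9.44 FPKM, then in lung (6.96 and 8.71), liver (3.21 and 3.60) and small intestine (2.46 and 2.18). No neighbours in this order overlapped. An antisense-type gene annotated on the same strand shares 10.2% of the exon length of Pfkm, and reads there could have been assigned to either. Pfkl, the liver type (chr10:77986947-78010083, minus strand), was the most even of the 3, with 8.98 and 9.73 FPKM in lung, 7.23 and 6.06 in kidney, 6.95 and 4.83 in small intestine, and 3.83 and 3.64 in liver. It is named for the liver but was lowest there as deposited, an order that turned with median-of-ratios scaling. Kidney and small intestine overlapped. Pfkp, the platelet type (chr13:6579768-6648777, minus strand), varied most. It was at 14.8 and 18.3 FPKM in small intestine, 4.95 and 4.59 in lung, 3.28 and 2.27 in kidney, and 0.228 and 0.231 in liver (28 and 32 reads), with no overlap between neighbours and a 71.9-fold difference between the means of small intestine and liver.

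Pfkm held 52.2% ± 1.35 (SD, n = 2) of the summed FPKM of the step in kidney, Pfkl 42.6% ± 0.50 in lung and 50.7% ± 2.79 in liver, and Pfkp 66.7% ± 7.90 in small intestine. In liver the shares of Pfkl and Pfkm (46.2% ± 2.82) were close, with the libraries at 52.7% and 48.7% for Pfkl and at 44.2% and 48.2% for Pfkm. The sum of the 3 genes was 19.7 FPKM in kidney, 22.0 in lung and 24.7 in small intestine, and 7.37 in liver. After median-of-ratios scaling the sums were 22.8 in kidney, 11.8 in lung, 23.0 in small intestine and 12.5 in liver, so that their order depended on the scaling, while the shares do not. Between Pfkl and Pfkm the log2 ratio was lowest in kidney (-0.60 and -0.63) and highest in small intestine (1.46 and 1.11), with lung at 0.36 and 0.16 and liver at 0.25 and 0.02. This was the narrowest of the 8 ratios reported, with a span of 1.90 (exact permutation p = 0.0190, adjusted p = 0.0299), and lung and liver overlapped. Pfkl against Pfkp had a log2 ratio that spanned 5.03 (exact permutation p = 0.00952, adjusted p = 0.02095), from 3.58 and 3.50 in liver to -1.08 and -1.90 in small intestine, and 3.30 with 1 added in place of 0.1. That of Pfkm to Pfkp spanned 6.18 (exact permutation p = 0.00952, adjusted p = 0.02095), from 3.34 and 3.48 in liver to -2.54 and -3.01 in small intestine. Small intestine was the tissue in which Pfkp exceeded both other types, in both libraries.

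At the aldolase step, Aldoc, the brain type (chr11:78322968-78327781, plus strand), was low, and with Pfkl the most even of the members over the tissues. Its FPKM was 3.99 and 3.24 for kidney, 3.99 and 2.71 for small intestine, 2.54 and 1.93 for liver, and 1.57 and 1.90 for lung. Kidney and small intestine overlapped, and the mean of kidney was 2.08 times that of lung.

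At the pyruvate kinase step, Pkm, which encodes the M1 and M2 forms by alternative splicing (chr9:59656368-59679375, plus strand), was abundant outside the liver. Its FPKM was 167 and 138 in small intestine, 58.1 and 61.3 in lung, 29.6 and 25.7 in kidney, and 2.95 and 3.04 in liver. No neighbours overlapped, and the mean of small intestine was 50.9 times that of liver. A gene annotated on the same strand shares 15.3% of the exon length of Pkm, and values per gene do not tell the splice forms apart. Pklr was at 27.3 and 37.7 FPKM in small intestine, 12.4 and 13.6 in liver, 4.91 and 2.86 in kidney, and 0.475 and 0.249 in lung (15 and 10 reads). Both genes of the step were thus highest in small intestine, and 22.0% of the exon length of Pklr overlaps a gene on the other strand. Pkm held 87.9% ± 3.01 (SD, n = 2) of the summed FPKM of the step in kidney, 99.4% ± 0.29 in lung, 82.2% ± 5.24 in small intestine and 18.7% ± 0.65 in liver. Liver was the tissue in which Pklr exceeded Pkm. Pkm against Pklr had a log2 ratio of 6.66 and 7.46 in lung, 2.56 and 3.13 in kidney, 2.61 and 1.87 in small intestine, and -2.04 and -2.13 in liver, with a span of 9.15 (exact permutation p = 0.0190, adjusted p = 0.0299), and kidney and small intestine overlapped.

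At the lactate dehydrogenase step, Ldhb, the heart-type subunit (chr6:142490249-142507957, minus strand), had the widest range of the members. It was at 691 and 625 FPKM in kidney, 89.7 and 97.2 in lung, 6.12 and 5.23 in small intestine, and 2.02 and 2.53 in liver (29 and 41 reads). No neighbours overlapped, and per read counted Ldhb was 289-fold higher in kidney than in liver (95% exact counting interval 228.9 to 371). Ldha, the muscle-type subunit, varied far less, with 377 and 386 FPKM in small intestine, 170 and 179.9 in kidney, 152 and 177 in liver, and 85.2 and 80.8 in lung. Kidney and liver overlapped for Ldha, and lung was lowest. Ldhb held 78.95% ± 1.83 (SD, n = 2) of the summed FPKM of both subunits in kidney and 52.9% ± 2.36 in lung, but 1.47% ± 0.18 in small intestine and 1.36% ± 0.07 in liver. Ldhb against Ldha had a log2 ratio of 2.02 and 1.80 in kidney and 0.07 and 0.27 in lung, compared with -5.92 and -6.18 in small intestine and -6.17 and -6.08 in liver, a span of 8.03 (exact permutation p = 0.0286, adjusted p = 0.0314). Liver and small intestine overlapped in this ratio although the deposited level of each subunit was higher in small intestine. With 1 added in place of 0.1 they did not overlap, with liver at -5.67 and -5.66 and small intestine at -5.73 and -5.96, and their order turned. The cardiac muscle list stood at 243 and 250 FPKM in the lung libraries, with no gene listed at 0, and its part in the lung values of Ldhb and Pfkm was not tested.

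The promoters of the lactate dehydrogenase subunits are shown because they encode subunits of 1 enzyme and had unlike patterns over the tissues. The window of Ldha is chr7:46845554-46845803 on the plus strand and that of Ldhb chr6:142507958-142508207 on the minus strand, with the same letters in capitals as above.

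Ldha: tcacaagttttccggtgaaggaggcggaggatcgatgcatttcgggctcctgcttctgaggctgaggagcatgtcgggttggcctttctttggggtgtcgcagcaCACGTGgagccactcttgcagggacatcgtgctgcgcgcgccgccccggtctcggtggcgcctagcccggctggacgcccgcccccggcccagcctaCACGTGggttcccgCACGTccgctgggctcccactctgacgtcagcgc
Ldhb: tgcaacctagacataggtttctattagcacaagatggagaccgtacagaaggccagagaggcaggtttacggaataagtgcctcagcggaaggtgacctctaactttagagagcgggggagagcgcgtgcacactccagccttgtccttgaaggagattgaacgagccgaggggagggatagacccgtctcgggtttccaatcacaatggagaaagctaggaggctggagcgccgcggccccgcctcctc

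The window of Ldha held 5 matches, 2 on the strand of the gene and 3 on the other, of which 4 formed CACGTG in 2 places. The window of Ldhb held none. Ldha has 2 starts in RefSeq, and the window of the other start held none either. The start used in these tissues was not tested.

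**Figure D3:**
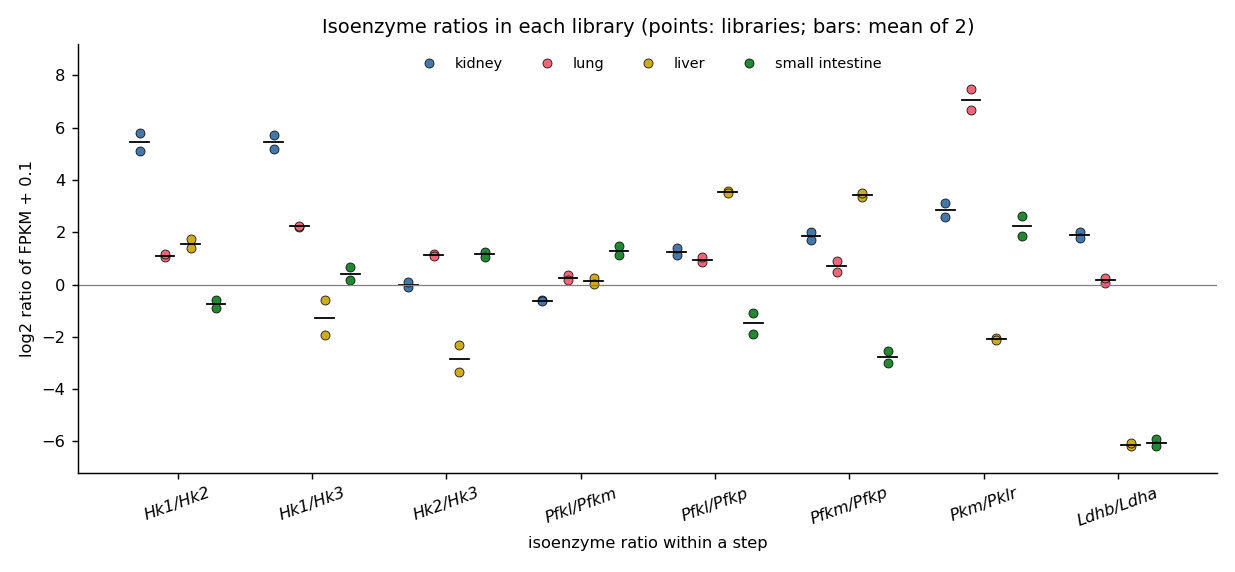
log2 ratios of FPKM + 0.1 for 8 isoenzyme pairs in each of the 8 libraries, with 1 point per library and a bar at the mean of the 2 libraries. Small intestine lay below 0 for Hk1/Hk2, Pfkl/Pfkp and Pfkm/Pfkp, liver lay below 0 for Hk1/Hk3, Hk2/Hk3 and Pkm/Pklr, and both lay near -6 for Ldhb/Ldha.

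Each tissue was then compared with the mean of the other 3 on log2(FPKM + 1) with limma over all 16328 genes that passed the filter, and called genes had an adjusted p under 0.05 with a log2 difference over 1 in size. A difference on this scale understates that of low genes. The deposited values shift all genes between tissues: taken over every gene tested, the median was 0.82 for lung, -0.34 for kidney, -0.01 for small intestine and -0.72 for liver. With median-of-ratios scaling it was -0.02, -0.11, -0.05 and -0.14. The background of calls moved with it, and the counts are given under both scalings.

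In kidney, 3 of the 9 members tested were higher (background 8.65% of all genes) and 1 was lower (16.1%), with a median log2 difference of 0.14. Ldhb was higher by 5.69 ± 0.12 (SE; limma, adjusted p = 5.6e-07), Hk1 by 1.40 ± 0.22 (adjusted p = 0.00105) and Pfkm by 1.15 ± 0.15 (adjusted p = 0.000408), although Pfkm was at 0.94 and not called when each library was set to the same sum. Hk2 was lower, with a difference of -1.13 ± 0.10 (limma, adjusted p = 6.4e-05), but -0.92 and not called after median-of-ratios scaling, which left 3 members higher (11.5%) and 0 lower (12.1%). Hk3 was at -0.96 ± 0.13 and just short of the fold threshold, which it passed without liver library 1, with the same sum in each library (-1.01), with limma-voom on recovered reads and with a pseudocount of 0.1, so that 2 members were then called lower.

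In lung, 4 of the 9 members were higher (40.7%) and 0 lower (8.26%), with a median of 0.72 against 0.82 over all genes: Ldhb by 1.96 ± 0.12 (SE; limma, adjusted p = 5.4e-06), Hk1 by 1.46 ± 0.22 (adjusted p = 0.000481), Hk2 by 1.45 ± 0.10 (adjusted p = 7.6e-06) and Pkm by 1.23 ± 0.12 (adjusted p = 6.0e-05). Their share lay near the background. None of these calls held after median-of-ratios scaling, where the differences were 0.85, 0.59, 0.84 and 0.12, and where 0 members were higher (14.6%) and 1, Aldoc, was lower (16.0%). Aldoc was at -0.55 ± 0.18 as deposited, the member with a sign opposite to the shift of all genes, and at -1.27 after scaling. Hk3, Pfkl, Pfkm and Pfkp were at 0.42 to 0.72 as deposited, and at -0.0026 to -0.35 after scaling, so their direction in lung depended on the scaling.

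In liver, 0 of the 9 members were higher (6.56%) and 5 were lower (32.7%), with a median of -1.11. Ldhb was at -4.51 ± 0.12 (SE; limma, adjusted p = 1.4e-07), Pkm at -4.01 ± 0.12 (adjusted p = 2.3e-07), Pfkp at -2.55 ± 0.16 (adjusted p = 1.1e-05), Hk1 at -1.81 ± 0.22 (adjusted p = 0.000199) and Hk2 at -1.11 ± 0.10 (adjusted p = 5.0e-05). After median-of-ratios scaling 0 were higher (12.3%) and 4 lower (13.9%), with Hk2 at -0.82 no longer called. Pfkl, Pfkm and Aldoc turned from -0.78, -0.65 and -0.23 to 0.08, 0.19 and 0.47, and their direction in liver depended on the scaling. Hk3 was the member with a positive difference in liver as deposited, 0.35 ± 0.13, and was at 0.94 after scaling. It was called higher with quantile normalization (1.05), limma-voom on recovered reads or a pseudocount of 0.1, each of which gave 1 member higher in liver.

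In small intestine, where the shift of all genes was smallest, 2 of the 9 members were higher (13.7%) and 3 lower (11.3%). Pkm was higher by 3.002 ± 0.12 (SE; limma, adjusted p = 1.2e-06) and Pfkp by 2.55 ± 0.16 (adjusted p = 1.1e-05). Ldhb was at -3.14 ± 0.12 (limma, adjusted p = 9.6e-07), Pfkm at -1.19 ± 0.15 (adjusted p = 0.000338) and Hk1 at -1.04 ± 0.22 (adjusted p = 0.00474). After median-of-ratios scaling 2 were higher (13.0%) and 2 lower (11.6%). Hk1 was the call that was lost, at -0.997 after scaling, -0.92 without kidney library 1 and -0.94 without small intestine library 2. Hk2 was at 0.79 ± 0.10 in small intestine and was not called, as in 14 of the 16 alternatives that tested it, while the rest called it.

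**Figure D4:**
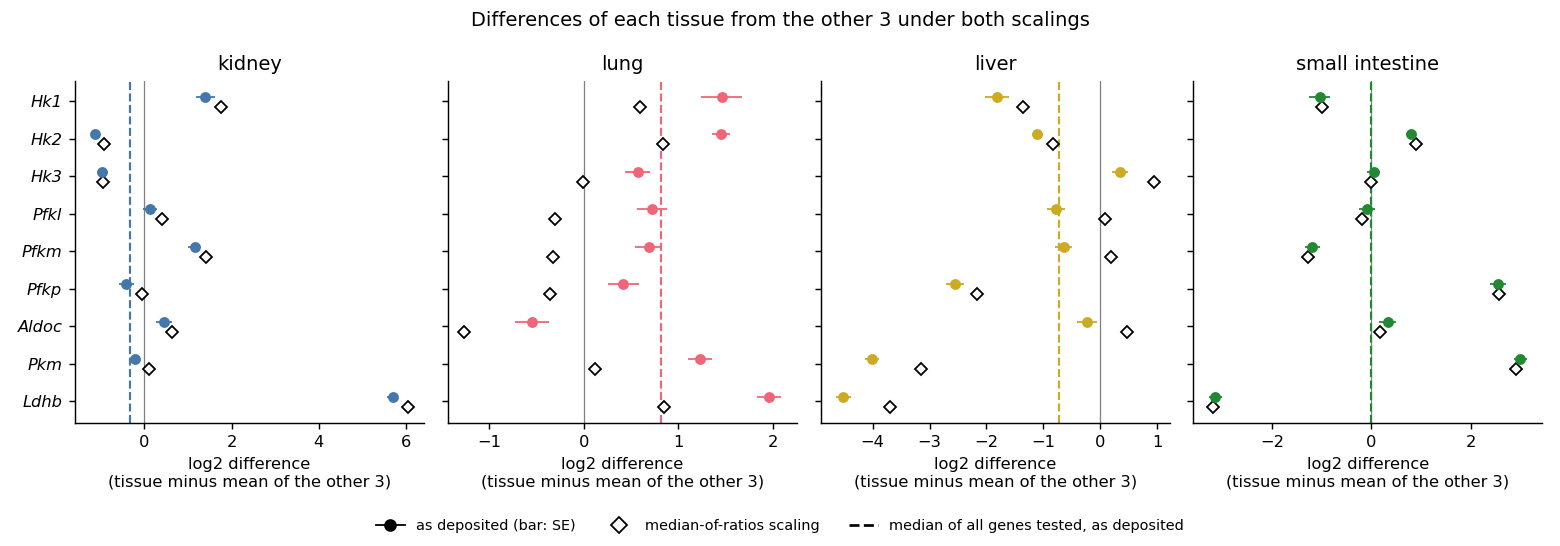
log2 differences of each tissue from the mean of the other 3 for the 9 members tested, as deposited (filled points, bars of 1 SE) and after median-of-ratios scaling (open diamonds), with a dashed line at the median of all genes as deposited. The 2 scalings differ most in lung and liver, where the dashed lines lie at 0.82 and -0.72, and least in small intestine.

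Between pairs of tissues, 30 of 54 member comparisons were called. Of the 9 members, 4 were called between kidney and lung (background 50.3%), 5 between kidney and liver (23.1%), 6 between kidney and small intestine (29.5%), 6 between lung and liver (62.7%), 5 between lung and small intestine (40.6%) and 4 between liver and small intestine (36.2%). These pairs share libraries and are not independent. After median-of-ratios scaling the number called was the same for each pair and 30 in all, with backgrounds of 34.1%, 22.0%, 28.6%, 37.2%, 30.7% and 29.8% in that order, but some of the genes differed. All 5 calls between kidney and liver (Ldhb, Pkm, Hk1, Pfkp and Pfkm) and all 6 between lung and liver (Ldhb, Pkm, Hk1, Pfkp, Hk2 and Pfkl) were higher outside the liver as deposited. This was also the more common direction over all genes tested. There, 2646 were higher in kidney and 1126 in liver, and 9058 were higher in lung and 1178 in liver. With median-of-ratios scaling these counts were 1861 and 1728, and 3160 and 2918. After scaling Pfkm against kidney (0.92) and Pfkl against lung (-0.28) were no longer called, while 2 members were called higher in liver: Hk3 (kidney minus liver -1.41) and Aldoc (lung minus liver -1.31). Hk3 was also called higher in liver than in kidney without scaling when kidney library 1 or liver library 1 was left out. Between kidney and small intestine the members split by isoenzyme: Hk1, Pfkm and Ldhb were higher in kidney, by 1.83, 1.76 and 6.63, and Hk2, Pfkp and Pkm were higher in small intestine, where kidney minus small intestine was -1.44, -2.22 and -2.42. The same 6 were called after scaling. Between kidney and lung, Ldhb was higher in kidney by 2.80, and Hk2, Hk3 and Pkm were higher in lung (kidney minus lung -1.93, -1.15 and -1.09). The balance turned after scaling, with 3 higher in kidney and 1 in lung: Hk3 and Pkm were not called (-0.70 and -0.0035), and Aldoc and Pfkm were called higher in kidney (1.42 and 1.31). All genes tested moved the same way, from 1448 higher in kidney and 6764 in lung as deposited to 2748 and 2817 after scaling. Between lung and small intestine, Hk1, Pfkm and Ldhb were higher in lung, by 1.87, 1.41 and 3.82, and Pfkp and Pkm in small intestine (lung minus small intestine -1.59 and -1.33). After scaling Pfkm was at 0.72 and no longer called, and Aldoc was called higher in small intestine (-1.075). Between liver and small intestine, Hk2, Pfkp, Pkm and Ldhb were higher in small intestine as deposited, as were 4620 of all genes tested, with 1288 higher in liver. Ldhb, with a difference of -1.03 ± 0.15, was not called after scaling (-0.37), and Pfkm was then called higher in liver (1.104).

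The 18 other genes of the pathway reported here were all tested, but 3 of them reached FPKM 1 in 1 tissue alone, Gckr and Pfkfb1 in liver and Eno2 in lung. Passing the filter through 1 tissue fixes their differences, so they are left out of the counts below, a choice made after the values were seen. Gckr was at 31.2 and 30.3 FPKM in liver and at 0 to 0.0945 in the other libraries, and Pfkfb1 (the liver type of its family) at 13.6 and 8.37 in liver and at 0.158 to 0.801 in the others. Of the remaining 15 genes, 3 were higher (background 8.65%) and 4 lower (16.1%) in kidney, with Pgam2 (the muscle-type phosphoglycerate mutase) at 3.54, Tpi1 at 1.25 and Pgk1 at 1.09, and with Hkdc1 at -2.12, the fructose 2,6-bisphosphate enzymes Pfkfb3 and Pfkfb4 at -1.64 and -1.60, and Eno3 just past the fold threshold. After median-of-ratios scaling 5 were higher (11.5%) and 3 lower (12.1%): Eno3 was not called (-0.75), and Gapdh and Pgam1 were called higher (1.23 and 1.107). In lung 4 were higher (40.7%) and 7 lower (8.26%), against a shift of all genes upwards. The lower genes were Pklr (-3.26), Tpi1 (-1.97), Pgk1 (-1.54), Gapdh (-1.48), Ldha (-1.41), Eno1 (-1.24) and Pgam1 (-1.05). All 7 were also called lower after scaling, with Hkdc1 and Gpi1 besides (-1.05 and -1.19), which made 9 (16.0%). The higher genes in lung were Eno3 (2.19), Pfkfb3 (1.71), Pfkfb4 (1.49) and Pfkfb2 (1.34), of which Eno3 alone was called after scaling (1.18, background 14.6%). The part of the cardiac and skeletal muscle lists in the lung level of Eno3 was not tested.

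In liver 1 of the 15 was higher (6.56%), Pklr at 1.23, and 6 were lower (32.7%). The lower genes were Pgam2 (-2.91), Pfkfb4 (-2.68), Hkdc1 (-2.36), Bpgm (-1.89), Gpi1 (-1.51) and Eno3 (-1.12). After median-of-ratios scaling 1 was higher (12.3%) and 4 lower (13.9%), without Gpi1 and Eno3, which were at -0.55 and -0.32. In small intestine 8 were higher (13.7%) and 1 lower (11.3%), with Hkdc1 at 5.004, Pklr at 2.88, Pfkfb4 at 2.78, Ldha at 1.505, Eno1 at 1.27, Tpi1 at 1.27, Bpgm at 1.23 and Gpi1 at 1.19, and with Pgam2 at -1.20. After scaling 8 were higher (13.0%) and 1 lower (11.6%). Along the pathway, the median log2 difference of the 15 genes was 1.19 in small intestine, 0.31 in kidney, -0.67 in liver and -0.53 in lung, and after scaling 1.06, 0.61, 0.17 and -1.19, so that its sign in liver depended on the scaling.

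For each member, the 2 genes with the most similar pattern were sought by Pearson's r of log2(FPKM + 1) over the 8 libraries, which share tissues in pairs, among 6482 genes. The closest were Cnih4 and Rab25 for Pkm (r = 0.9988 and 0.997), St14 and Pmaip1 for Pfkp (0.9986 and 0.995), Rhog and Tapbp for Hk2 (0.998 and 0.995), Tmem9 and Apmap for Pfkm (0.996 and 0.994), and Tmem189 and Gmpr for Ldhb (0.995 and 0.993). They were Igfbp5 and Far1 for Hk1 (0.994 and 0.993), Tmem80 and Amd2 for Pfkl (both 0.986), Srebf1 and Bmp1 for Hk3 (0.985 and 0.967), and Traf4 and Tufm for Aldoc (0.962 and 0.953). St14, an epithelial membrane protease, was at 24.3 FPKM in small intestine, 5.48 in lung, 3.58 in kidney and 0.174 in liver. It shared the order of Pfkp, which follows from its choice by r over the same libraries.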

How the data were processed

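Bulk RNA-seq libraries of 4 tissues were grouped by the sample labels, and each column of values was matched to a sample by name. The values deposited by the authors are FPKM. Per the methods, the authors had reads selected by index with bbduk, mapped to Ensembl GRCm38 with STAR 2.5.3a and turned into FPKM by the fpkm function in DESeq2; the counting program, strand use and treatment of multiply mapped reads are not given in the sources used here. The methods have 4 tissues taken from each mouse, and the labels do not say that a replicate number marks a mouse. Libraries were therefore tested as independent, and p-values measure the spread between libraries said to be biological replicates.

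The members and gene lists were chosen with earlier results of these data known. Exon lengths came from GENCODE M21; multiplied by them, 94.5% to 96.1% of the low values (under 50 reads) per library gave whole reads within 0.02, from which depth was recovered. The exon length of Pfkm in this annotation did not give whole reads, so its reads are approximate. FPKM values were tested on log2(FPKM + 1) with limma 3.58.1 in R 4.3.3 (trend, Benjamini-Hochberg over 16328 genes). Low genes were compared by pooled reads with exact binomial intervals. Isoenzyme ratios used a pseudocount of 0.1 and an exact permutation test. Of the 11 ratios adjusted together, 3 are not reported. The text names all members, their ratio partners, pathway genes called in a tissue, and for each member the 2 genes of highest Pearson's r with a mean FPKM of at least 5 and a named symbol. The limma step was tested on simulated data. Promoters came from RefSeq. Alternatives changed the pseudocount, filter, scaling, trend, replicate block and libraries, and used limma-voom on recovered reads. Python 3.11.15, numpy, pandas, scipy and matplotlib were used. Some genes of these steps and of the pathway list are not reported here.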

Additional observations from a re-analysis of the deposited data

How the results depend on the processing

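The number of members called in lung was 4 as deposited, 1 after median-of-ratios scaling and 2 after quantile normalization; no other count of members or pathway genes called in a tissue, with both directions together, moved by over 1.5 times under the alternatives run, nor did the 30 member comparisons between pairs of tissues. With the directions apart, the members called lower in kidney were 1 as deposited and 0 to 2 under the alternatives, those called higher in lung went from 4 to 0 or 1 and those lower from 0 to 1 with median-of-ratios scaling or quantile normalization, and those higher in liver from 0 to 1 with quantile normalization, limma-voom or a pseudocount of 0.1. Over all 18 pathway genes, those called higher went from 3 to 5 in kidney and from 4 to 1 in lung with median-of-ratios scaling or quantile normalization, and from 8 to 5 in small intestine with quantile normalization. Without liver library 1 the pathway genes called lower in kidney went from 6 to 3, and without either liver library those called higher in liver went from 3 to 1 and those lower in small intestine from 2 to 1, where Gckr and Pfkfb1 did not pass the filter. Those lower in small intestine also went from 2 to 1 with limma-voom on recovered reads. With a filter at FPKM 5, which Hk2, Hk3 and Aldoc did not pass, the members called between kidney and lung went from 4 to 2. With a replicate block the members called in the tissue comparisons stayed at 18 and the pathway genes at 40, and the block changed no other count of calls by that much. Replicate differences correlated between tissues at r = -0.217 to 0.0528. All tissues of a mouse were used, but no source ties a replicate number to a mouse, and a low correlation does not show that the libraries are unpaired. With 24 arrangements in the replicate block the smallest possible p is 0.0417, which passes adjustment over 11 ratios where at least 10 of them reach it: the spans of 6.19 (Hk1/Hk2), 6.72 (Hk1/Hk3), 4.001 (Hk2/Hk3), 1.90 (Pfkl/Pfkm), 5.03 (Pfkl/Pfkp), 6.18 (Pfkm/Pfkp), 9.15 (Pkm/Pklr) and 8.03 (Ldhb/Ldha) were then at adjusted p of 0.0764 to 0.0917. Of the 18 calls of single members, 7 were lost after median-of-ratios scaling, 5 after quantile normalization, 1 with the same sum in each library and 1 each without kidney library 1 and without small intestine library 2, and none changed direction. With 2 libraries per tissue, no library could be tested as an outlier. Hk2 in kidney and liver and Hk3 in kidney were at a few reads, and differences among these low values were not detectable at this depth.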
